A study of Mus musculus with 6 samples.

Results

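Integrin chains of leukocytes were followed in RNA-seq of mouse T cells that had been cocultured with antigen-presenting cells. The members were the rows of the deposited count table whose gene name is Itgam, Itgax, Itgal, Itgb2, Itgb1, Itga4, Itgb7, Itgae, Itgav or Itga6. These 10 genes are of 54532 in the table, and all 10 were among the 14883 genes that passed the filter on low counts and were tested. The control group and the DB2313 group held 3 libraries each. CD8T cells from mouse spleen, stimulated with beads that carry antibodies to CD3 and CD28, were kept for 24 hr with peritoneal macrophages, which thioglycolate had drawn into the cavity and IFN-γ (10 ng/mL, 12 hr) had activated. In the DB2313 group the macrophages had been given DB2313 at 14 nM, a compound that blocks the transcription factor Spi1 (also called PU.1), and in the control group they had not. This account of the cells and doses is from the paper's methods. That the cocultured macrophages, which the paper calls C1q+, had or had not been pretreated with DB2313 is from its results. GEO's labels divide the libraries in the same way but call the cocultured cells DC cells and the sequenced cells primary T cells, with no strain, sex or age of the mice. Neither source says whether the 3 libraries of a group came from separate cultures, so the p-values measure the spread between these libraries, which may be technical.

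An integrin is a pair of membrane chains, 1 alpha and 1 beta, that binds ligands on other cells or in the matrix outside the cell and joins them to actin inside. Itgb2 is found on leukocytes only and pairs with Itgal as LFA-1, which holds T cells to antigen-presenting cells through ICAM proteins, with Itgam as the complement receptor Mac-1 of macrophages and neutrophils, and with Itgax as p150,95, known from dendritic cells and macrophages as CD11c. Itgb1 and Itgb7 share the alpha chain Itga4, and Itgb7 also pairs with Itgae. Chains that are made without a partner are in general not carried to the cell surface.

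The libraries held between 16611975 and 18596217 counts. T cell markers were present in all 6 libraries, and 25 of 25 rose, from between 0.408% and 0.414% of all counts in the control libraries to between 0.655% and 0.661% in the DB2313 libraries. Markers of other cells were counted beside them. Of 23 tested macrophage markers, 20 fell and 3 rose, with a summed share of 1.34% to 1.37% in the control group and 0.562% to 0.574% in the DB2313 group. Vsig4 was at 0 and Timd4 had at most 3 counts in a library. Of 13 tested neutrophil markers 12 fell (0.1996% to 0.201% against 0.0733% to 0.0750%), and of 15 tested dendritic cell markers 13 fell and 1 rose (0.527% to 0.537% against 0.364% to 0.371%), with Siglech at 0. The neutrophil marker Retnlg, below 1 CPM on average in both groups, was higher (adjusted p = 0.0288), a call lost with DESeq2 (0.131), with no filter on low counts (0.0730), and on leaving out DB2313 replicate 1 (0.158) or either of control replicates 1 (0.116) and 2 (0.112). In such mixed RNA, fewer cells of a type and less RNA per cell cannot be told apart. Replicates differed by more than counting noise, with a chi-square per gene of 2.47 to 4.001 within groups and 52.4 to 56.8 between them.

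With DB2313, 6 of the 10 integrin chains fell, 1 rose and 3 did not pass the test. Itgax and Itgam fell most, to 18.7 and 59.9 CPM (the TMM-scaled share of a library's counts), and Itgb2 and Itgb1 fell by smaller amounts. Itgal and Itgav fell slightly, Itga6 rose, and Itga4, Itgb7 and Itgae overlapped between the groups and did not pass. A gene passed where its Benjamini-Hochberg adjusted p, over all tested genes, was below 0.05 by the quasi-likelihood F-test of edgeR, the source of every adjusted p below unless another test is named. Across all tested genes, 24.6% were lower and 20.8% higher by the same rule. With an absolute log2 fold change above 1 as well, Itgam and Itgax remained, against 5.3% of all tested genes that were lower and 1.37% that were higher by that rule. For 6 of the 10 chains every control library lay on one side of every DB2313 library, against 53.1% of all tested genes. The median log2 fold change of the 10 chains was -0.22, beside 0.019 over all tested genes.

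Of the genes that passed, 54.2% were lower under TMM, 57.4% under DESeq2, 36.6% under library size scaling, 41.8% under upper quartile scaling and 98.5% when libraries were scaled to the summed counts of the T cell markers. The last scaling moved the median of all genes to -0.56 on the log2 scale, and that of the 10 chains to -0.81. All directions below are for TMM scaling. Those of a chain that turned under another scaling are named with it, and those of other genes with their list.

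**Figure D1:**
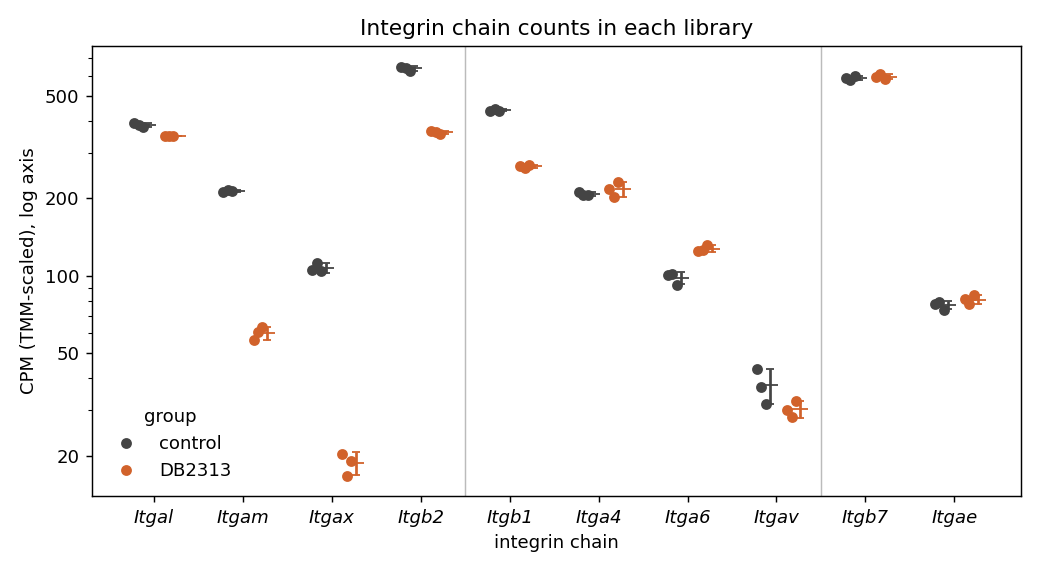
CPM of each integrin chain on a log axis in the 3 control and 3 DB2313 libraries. Points are libraries, and the cross with bars beside them is the mean and SD. Vertical lines divide Itgb2 and its alpha chains, Itgb1 and its alpha chains, and Itgb7 with Itgae. The 3 DB2313 libraries lie far below the control libraries for Itgam and Itgax, clearly below for Itgb2 and Itgb1, and above for Itga6.

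Itgam encodes the alpha chain of Mac-1, which binds the complement fragment iC3b, fibrinogen and ICAM-1. It lies on the plus strand of chromosome 7 of GRCm38 from 128062640 to 128118491. Its level was 211, 215 and 214 CPM in the control libraries and 56.2, 60.4 and 63.2 CPM in the DB2313 libraries. Every DB2313 library was below every control library by a wide margin. The means were 213 ± 1.89 and 59.9 ± 3.51 CPM (SD, n = 3 each), a 3.56-fold difference. The log2 fold change was -1.83 with a standard error of 0.043 (edgeR adjusted p = 4.26e-20), and 1.52% of all tested genes had a lower one.

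Itgax encodes CD11c, the alpha chain of p150,95, and is the next integrin gene downstream on the same strand, from 128129547 to 128150657. It was counted at 106, 113 and 104 CPM in the control libraries and at 20.4, 16.7 and 19.1 CPM in the DB2313 libraries. The groups were again far apart. The means were 107 ± 4.50 and 18.7 ± 1.86 CPM (SD, n = 3 each), a 5.72-fold difference and the largest among the 10 chains. The log2 fold change was -2.52 with a standard error of 0.066 (edgeR adjusted p = 2.91e-19), below which lay 0.645% of the tested genes. Over the fits that each left out 1 library, Itgam stayed between -1.87 and -1.79 and Itgax between -2.58 and -2.44.

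Because Itgam and Itgax are neighbours, fell most and were counted with an inhibitor of Spi1 in use, the 250 bases before their transcription starts are shown, from RefSeq on GRCm38.p6, 5′ to 3′ on the plus strand. Capitals mark GAGGAA, letters found in many Spi1 sites, or its reverse complement TTCCTC. Shorter matches, such as GGAA or its reverse complement TTCC alone, are not marked. The windows are chr7:128062390-128062639 for Itgam and chr7:128129300-128129549 for Itgax.
Itgam: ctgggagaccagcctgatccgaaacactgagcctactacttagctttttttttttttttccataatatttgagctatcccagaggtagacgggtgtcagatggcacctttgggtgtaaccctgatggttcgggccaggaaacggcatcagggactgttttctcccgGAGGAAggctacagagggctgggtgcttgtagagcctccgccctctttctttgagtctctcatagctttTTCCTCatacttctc
Itgax: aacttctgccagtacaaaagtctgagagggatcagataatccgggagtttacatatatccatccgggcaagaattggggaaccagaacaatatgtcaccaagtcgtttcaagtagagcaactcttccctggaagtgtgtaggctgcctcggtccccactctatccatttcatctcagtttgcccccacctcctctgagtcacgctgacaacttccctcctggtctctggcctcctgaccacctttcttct
The Itgam window held the letters on the gene's strand from 84 to 79 bases before the start and on the other strand from 15 to 10 bases before it. The Itgax window did not hold GAGGAA or TTCCTC, but both windows held unmarked GGAA and TTCC. The promoter table matched 6 of the 10 members, of which Itgam, Itgb1 and Itgav held GAGGAA on either strand, and Itga4, Itgb7 and Itgax did not. Of all 32851 promoters in the table, 23.3% held it in a window of the same length. TGTGGT, the core letters of Runx sites, was in the window of Itga4 only among the 6 members, and in 14.05% of all promoters. A match of letters is a description and not a site.

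Itgb2, the beta chain that Itgal, Itgam and Itgax share, lies on the plus strand of chromosome 10 from 77530252 to 77565708. Its level was 649, 643 and 626 CPM in the control libraries and 364, 364 and 357 CPM in the DB2313 libraries. The groups did not overlap. The means were 639 ± 12.04 and 362 ± 4.28 CPM (SD, n = 3 each), and the log2 fold change was -0.82 with a standard error of 0.032 (edgeR adjusted p = 5.23e-16).

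Itgal encodes the alpha chain of LFA-1 and lies on chromosome 7 from 127296260 to 127335138. It was at 393, 384 and 379 CPM in the control libraries and at 349, 349.7 and 349.5 CPM in the DB2313 libraries. The groups did not overlap, but they were close. The mean was 9.36% lower with DB2313, with a log2 fold change of -0.14 and a standard error of 0.032 (edgeR adjusted p = 0.000879). The call was lost with library size scaling (log2 fold change -0.047, adjusted p = 0.228) and with upper quartile scaling (-0.078, adjusted p = 0.0513).

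The estimates for Itgam and Itgax were further below 0, and that for Itgal nearer to it, than that of the shared beta chain. These changes stood beside the falls of macrophage markers (median log2 fold change -1.08), neutrophil markers (median -1.72) and dendritic cell markers (median -0.57), lists that do not contain the 10 chains. The part of these cells in the changes was not tested.

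**Figure D2:**
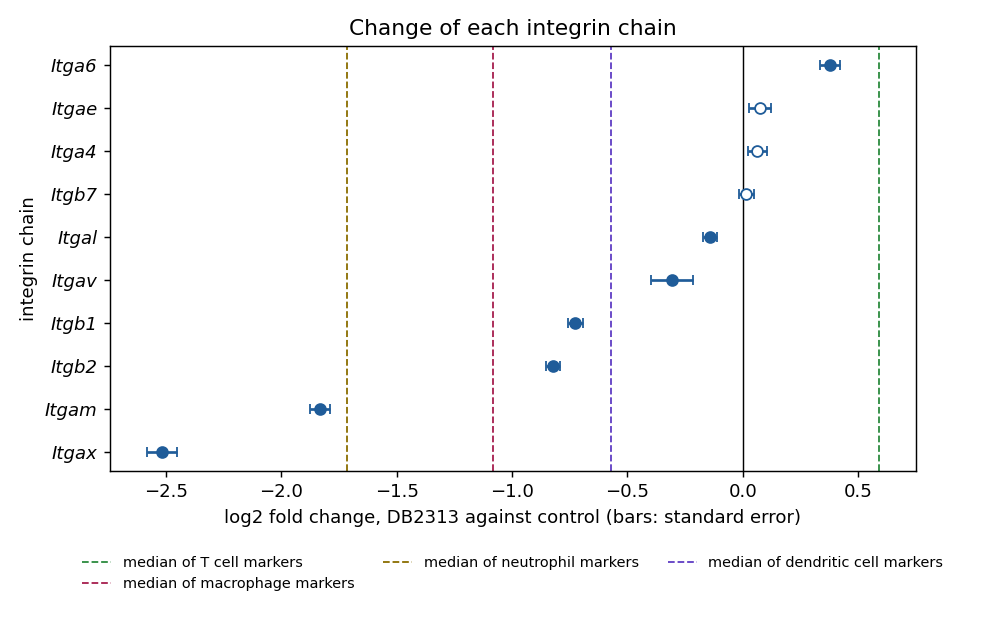
Log2 fold change of each integrin chain, DB2313 against control, with TMM scaling. Points are edgeR's estimates with their standard errors, filled where the adjusted p was below 0.05. Dashed lines give the medians of the T cell (0.59), dendritic cell (-0.57), macrophage (-1.08) and neutrophil (-1.72) markers. Itgax and Itgam lie below the neutrophil median, Itgb2 and Itgb1 between the macrophage and dendritic cell medians, and Itga6 between 0 and the T cell median. With scaling to the T cell markers, all 10 chains lay below 0.

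Itgb1 is the most widely shared beta chain and pairs with Itga4 (VLA-4, which binds VCAM-1 and fibronectin), with Itga6 (a laminin receptor) and with Itgav. It lies on chromosome 8 from 128685654 to 128733200. Its level was 437, 446 and 438 CPM in the control libraries and 267, 263 and 268 CPM in the DB2313 libraries. The groups did not overlap. The means were 440.5 ± 5.06 and 266 ± 3.01 CPM (SD, n = 3 each), with a log2 fold change of -0.73 and a standard error of 0.032 (edgeR adjusted p = 6.59e-15).

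Itga6 was the 1 chain that rose. It lies on chromosome 2 from 71745616 to 71858416 and was at 100.4, 102 and 91.8 CPM in the control libraries and at 124, 126 and 132 CPM in the DB2313 libraries. Every DB2313 library was above every control library. The mean was 30.0% higher, with a log2 fold change of 0.38 and a standard error of 0.045 (edgeR adjusted p = 1.93e-07). This was below the median of the T cell markers, 0.59, and when libraries were scaled to these markers its log2 fold change turned to -0.20 (adjusted p = 0.000283).

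Itga4, on the same chromosome from 79255426 to 79333123, was at 212, 206 and 205 CPM in the control libraries and at 217, 203 and 231 CPM in the DB2313 libraries. The groups overlapped. The log2 fold change was 0.062 with a 95% interval from -0.023 to 0.15 (edgeR adjusted p = 0.232). Without DB2313 replicate 2, the lowest of its group, it was 0.11 and passed (adjusted p = 0.0375).

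Itgav encodes the alpha chain of receptors for vitronectin and latent TGF-β, with Itgb1, Itgb3, Itgb5 and other beta chains as partners. It lies on chromosome 2 from 83724397 to 83806916 and had the fewest counts of the 10 chains in the control group. Its level was 43.5, 37.1 and 31.8 CPM in the control libraries and 30.2, 28.2 and 32.7 CPM in the DB2313 libraries. The groups overlapped, and the control libraries were spread widely. The log2 fold change was -0.31 with a standard error of 0.090 (edgeR adjusted p = 0.00730). It did not pass without control replicate 1, the highest library (-0.18, adjusted p = 0.105), or with library size scaling (-0.21, adjusted p = 0.0561).

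Itgb7 pairs with Itga4 in the gut-homing receptor for MAdCAM-1 and with Itgae in the receptor for E-cadherin. It lies on the minus strand of chromosome 15 from 102215995 to 102231944. It was at 587, 576 and 598 CPM in the control libraries and at 591, 608 and 583 CPM in the DB2313 libraries. The groups overlapped, and the log2 fold change was 0.016 with a 95% interval from -0.050 to 0.082 (edgeR adjusted p = 0.711).

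Itgae encodes CD103, known from T cells resident in epithelia, mast cells and some dendritic cells, and lies on chromosome 11 from 73090583 to 73147446. Its level was 78.0, 78.8 and 73.7 CPM in the control libraries and 81.2, 77.4 and 84.0 CPM in the DB2313 libraries. The groups overlapped, and the log2 fold change was 0.074 with a 95% interval from -0.027 to 0.17 (edgeR adjusted p = 0.230).

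Whether Itga4, Itgb7 and Itgae passed depended on the scaling. With library size scaling their log2 fold changes were 0.16, 0.11 and 0.17 (adjusted p of 0.00364, 0.00446 and 0.00699 from edgeR). With upper quartile scaling they were 0.13, 0.080 and 0.14 (adjusted p of 0.0141, 0.0474 and 0.0214). When libraries were scaled to the T cell markers they turned to -0.52, -0.57 and -0.51, and all 10 chains were lower.

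**Figure D3:**
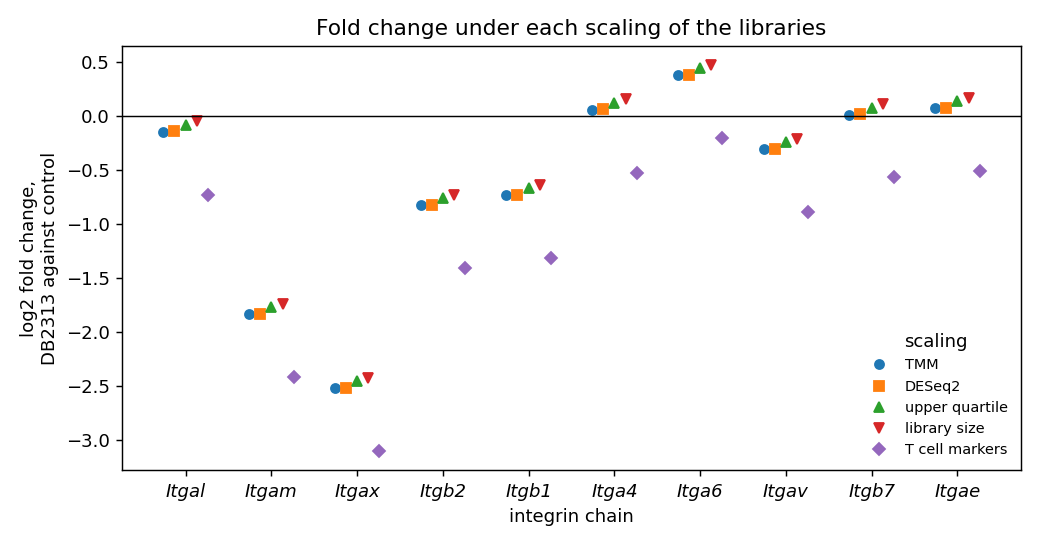
Log2 fold change of each integrin chain, DB2313 against control, under 5 scalings of the libraries (one marker shape each). TMM, DESeq2, upper quartile and library size lie close together. Scaling to the T cell markers lowers every chain, so that Itga6, Itga4, Itgb7 and Itgae, which lie above 0 under the other 4, lie below it.

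The ratio of an alpha to its beta chain within a library does not depend on how libraries are scaled. It was computed from counts per base of the deposited gene length for 8 partner pairs and compared between groups with two-sided exact permutation tests, for which 3 against 3 libraries allow no p below 0.1. The ratio of Itgal to Itgb2 was 0.281, 0.278 and 0.281 in the control libraries and 0.445, 0.447 and 0.455 in the DB2313 libraries. The groups did not overlap, and the log2 ratio was 0.68 higher with DB2313 (exact p = 0.1, 0.133 after Benjamini-Hochberg adjustment over the 8 pairs).

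The ratio of Itgam to Itgb2 averaged 0.203 ± 0.00497 without and 0.101 ± 0.00694 with DB2313 (SD, n = 3 each), and the log2 ratio differed by -1.01. Most exon bases of Itgam are also those of another gene, as described with the levels per kilobase. With the same counts divided by its unshared bases, Itgam was at 64.7% ± 1.59 and 32.1% ± 2.22 of Itgb2. Reads were not counted anew, so the log2 difference is the same by construction. That of Itgax to Itgb2 was 0.107 ± 0.00405 and 0.0329 ± 0.00332 (SD, n = 3 each), with a log2 difference of -1.70. Against Itgb1, the ratio of Itga6 was 1.11 higher on the log2 scale with DB2313, that of Itga4 0.79 higher and that of Itgav 0.43 higher. In each of these 5 pairs, as in that of Itgal, the groups did not overlap, which gives the smallest exact p of 0.1 and an adjusted p of 0.133. Itgb1 itself had a log2 fold change of -0.73, beside 0.062 for Itga4 and -0.31 for Itgav. Itga1 and Itga5, which also pair with Itgb1, were not among the pairs. They fell by more than Itgb1, with log2 fold changes of -2.32 and -0.78. Pairs that share a beta chain are not separate results, and no share without overlap was computed for ratios over all genes. The Itgb7 pairs overlapped between the groups. Their log2 ratios differed by 0.044 for Itga4 (exact p = 0.7) and 0.057 for Itgae (exact p = 0.4).

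**Figure D4:**
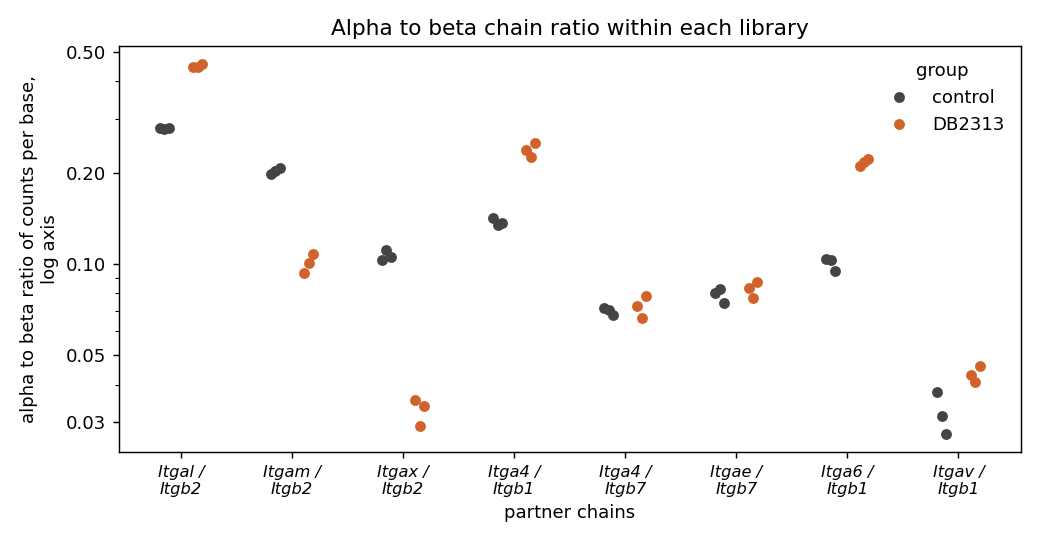
Ratio of alpha to beta chain counts per base on a log axis in each library, for 8 partner pairs (points: libraries). With DB2313, the ratio to Itgb2 is higher for Itgal and lower for Itgam and Itgax, and the ratio to Itgb1 is higher for Itga4, Itga6 and Itgav, each without overlap. The pairs with Itgb7 overlap between the groups.

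Per kilobase of deposited gene length, the order of levels in the control group was Itgb7 (212 ± 3.91 CPM per kb), Itgb2 (209.5 ± 3.94), Itgb1 (108 ± 1.24), Itgal (58.7 ± 1.03), Itgam (42.5 ± 0.376), Itgax (22.4 ± 0.938), Itgae (16.8 ± 0.602), Itga4 (14.9 ± 0.271), Itga6 (10.9 ± 0.604) and Itgav (3.49 ± 0.542; SD, n = 3 each). Itgb7 and Itgb2 did not differ beyond their spread. In the DB2313 group Itgb7 (214 ± 4.53), Itgb2 (118 ± 1.40), Itgb1 (65.2 ± 0.737) and Itgal (53.2 ± 0.0760) led again. They were followed by Itgae (17.7 ± 0.718), Itga4 (15.5 ± 1.01), Itga6 (14.1 ± 0.468), Itgam (11.9 ± 0.698), Itgax (3.90 ± 0.387) and Itgav (2.82 ± 0.209; SD, n = 3 each). Itga4 and Itga6 did not differ beyond their spread. Itgam and Itgax were 3 places lower in this order than in the control group. The places of Itga6, Itga4 and Itgae depended on the length used. The principal protein-coding transcript of Itga6 has 4310 bases, against 9025 deposited. Over such transcripts Itga6 was at 22.7 ± 1.27 CPM per kb without and 29.6 ± 0.979 with DB2313 (SD, n = 3 each). Its mean then stood at places 7 and 5, above those of Itga4 and Itgae.

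Among the alpha chains of Itgb2, Itgal made up 47.5% ± 0.690 of the summed level per kb of Itgal, Itgam and Itgax without DB2313 and 77.1% ± 0.691 with it (SD, n = 3 each). Itgam went from 34.4% ± 0.479 to 17.3% ± 0.867, and Itgax from 18.1% ± 0.587 to 5.65% ± 0.566. The deposited length of Itgam is uncertain as a divisor. Of its 5024 exon bases, 3450 are also exons of Gm49368, a gene annotated on the same strand from 128062683 to 128128160 that had 0 to 5 counts in a library. With so few counts for Gm49368, reads on the shared bases were not counted for both genes. Whether they were left out or given to Itgam is not stated in the sources used here. A counter that leaves out reads shared by 2 genes would have counted Itgam on the other 1574 bases only. Over these, Itgam was at 136 ± 1.20 CPM per kb without and 38.1 ± 2.23 CPM per kb with DB2313, at places 3 and 5 of the order. Itgal then made up 27.1% ± 0.502 and 55.9% ± 1.20 of the summed alpha chains. The summed level of the 3 alpha chains relative to Itgb2 was 59.0% ± 0.677 and 58.2% ± 1.26 with the deposited lengths, and 103% ± 1.75 and 80.3% ± 2.71 with the unshared bases. The fold change of each chain between groups does not depend on this choice.

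Exons of Itga4 overlap those of Cerkl on the opposite strand by 1124 bases, and Cerkl had 13 to 25 counts in a library. Exons of Itgav overlap those of Gm13684 by 634 bases (at most 3 counts). Haspin, counted 350 to 420 times, lies within the span of Itgae without sharing exon bases. The strand setting of the counting is not given in the sources used here.

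The genes whose log2 CPM deviations over the 6 libraries lay nearest to those of Itgax, among 9324 protein-coding genes of at least 10 CPM on average, were Nxpe5, Ciita, Wfdc21 and S100a8, at Euclidean distances of 0.231 to 0.247 on the log2 scale. Ciita, the master regulator of MHC class II genes, went from 190 ± 2.88 to 34.8 ± 0.469 CPM, and S100a8, a calcium-binding protein of neutrophils and monocytes, from 511 ± 7.99 to 91.1 ± 11.9 CPM (SD, n = 3 each). Nearest to Itga6 were Inpp4b, Med29, Zfp146 and Krba1, at distances of 0.0549 to 0.0599. Inpp4b, a phosphoinositide phosphatase, went from 168 ± 6.66 to 220.1 ± 6.83 CPM (SD, n = 3 each), a direction that turned with scaling to the T cell markers (-0.19 on the log2 scale), as that of Itga6 did. Med29, Zfp146 and Krba1 rose by less than Inpp4b (log2 fold changes of 0.37, 0.37 and 0.36), so that scaling turned them too. These likenesses are descriptions over the same 6 libraries, whose 2 groups differed in their shares of cell marker counts.

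Other genes of integrin adhesion were followed in 5 lists, with 160 distinct genes, of which 133 were tested. In all, 62 were lower (46.6%, against 24.6% of all tested genes) and 33 higher (24.8%, against 20.8%). When libraries were scaled to the T cell markers, 110 were lower and 4 higher, and 26 of the 33 genes that were higher under TMM lay below 0. Of the 160 genes, 4 are also in a list of cell markers.

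Among the other integrin chains, 11 of 17 were tested, of which 4 were higher, 2 lower and 5 did not pass, with a median log2 fold change of 0.16. Itga1, the alpha chain of a collagen receptor, fell from 45.4 ± 3.44 to 9.13 ± 2.31 CPM, with a log2 fold change of -2.32 (standard error 0.11). Itga5, the alpha chain of the fibronectin receptor, fell from 51.5 ± 3.82 to 30.0 ± 2.25 CPM. Both pair with Itgb1 and kept their direction under every scaling. Itgb3, a partner of Itgav and of the platelet chain Itga2b, was the most abundant and rose from 98.0 ± 1.16 to 132 ± 2.25 CPM, and Itga2b rose from 75.2 ± 6.03 to 83.9 ± 1.63 CPM (SD, n = 3 each). With scaling to the T cell markers both turned, Itgb3 to -0.16 and Itga2b to -0.43 on the log2 scale. The count of 4 higher chains was 2 with DESeq2 and also on leaving out any of control replicates 2 and 3 and DB2313 replicates 1 and 2, where Itga2b and Itga2 did not pass. Beside these, 6 of 7 tested platelet and megakaryocyte markers rose, a list that includes Itga2b, and Gp1bb was at 0. With scaling to the T cell markers, 2 markers of this list were higher and 2 lower. The part of platelet and megakaryocyte RNA in the rises was not tested. Itgad, the remaining alpha partner of Itgb2, was not among the tested genes.

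Of 27 tested ligands, 14 were lower and 6 higher, with a median log2 fold change of -0.29. Thbs1, a matrix glycoprotein, was the most abundant and fell from 1112 ± 29.3 to 313 ± 15.1 CPM. C3, whose fragment iC3b is the ligand of Mac-1 and p150,95, fell from 561 ± 3.52 to 187 ± 4.78 CPM (SD, n = 3 each). Adam8, a membrane metalloprotease, fell with a log2 fold change of -1.31 (standard error 0.040). The largest rises were in Lamb3, a laminin chain, at a log2 fold change of 0.68 (standard error 0.14), Cd226, which associates with LFA-1, at 0.63 (0.085) and Icam2, a ligand of LFA-1, at 0.57 (0.068). With scaling to the T cell markers Icam2 turned to -0.014. The main counter-receptors of the other pairs were looked at after the values were seen. Icam1, bound by LFA-1 and Mac-1, fell from 229 ± 6.05 to 159.8 ± 4.81 CPM, and Cdh1, bound by the Itgae pair, from 36.6 ± 0.835 to 23.9 ± 1.88 CPM (SD, n = 3 each). Vcam1, bound by VLA-4, was at 8.58 ± 0.658 and 8.94 ± 1.07 CPM, and Madcam1 below 1 CPM on average in both groups. Fn1, the fibronectin gene, whose protein VLA-4 also binds, fell from 13.8 ± 0.309 to 5.82 ± 0.446 CPM (SD, n = 3 each).

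Of 33 tested inside-out activators, which switch integrins to high affinity, and their inhibitors, 10 were higher, 10 lower and 13 did not pass, with a median of -0.016. This even split depended on the scaling, with 15 higher and 8 lower by library size, 13 higher and 8 lower by upper quartile, and 2 higher and 27 lower by the T cell markers. Rasgrp2, the exchange factor that loads Rap1 in lymphocytes and platelets, rose from 82.5 ± 3.81 to 162 ± 4.204 CPM. Skap1, the adaptor of T cells, rose from 102 ± 0.932 to 163 ± 3.18 CPM, while its paralog Skap2 of myeloid cells fell from 141 ± 0.984 to 89.98 ± 2.02 CPM (SD, n = 3 each). Prkcq, a kinase of T cell receptor signalling, rose with a log2 fold change of 0.54 (standard error 0.036), which turned to -0.046 with scaling to the T cell markers. Rap1gap2, which switches Rap1 off, fell with one of -1.02 (0.10). Flna, a filamin that binds beta tails and holds integrins inactive, was the most abundant and fell from 913 ± 28.6 to 618 ± 1.91 CPM (SD, n = 3 each).

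Of 42 tested genes of outside-in signalling and the adhesion complex, 27 were lower (64.3%) and 7 higher, with a median of -0.21. Fgr, a Src family kinase of myeloid cells, fell from 61.6 ± 4.79 to 14.5 ± 0.840 CPM. Dock1, an exchange factor for Rac, fell from 18.8 ± 1.55 to 9.68 ± 0.674 CPM (SD, n = 3 each). Zap70, the T cell kinase that is also in the T cell list, rose from 95.4 ± 5.35 to 147 ± 13.9 CPM (SD, n = 3 each). Evl, which promotes actin growth, and Fyn, a Src family kinase of T cells, rose with log2 fold changes of 0.32 (standard error 0.035) and 0.32 (0.036). Rac2, the leukocyte Rac, was the most abundant and went from 729.7 ± 12.01 to 801 ± 6.05 CPM. Evl, Fyn and Rac2 turned to -0.26, -0.27 and -0.45 on the log2 scale with scaling to the T cell markers.

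Of 21 tested membrane partners and selectin-step molecules, 9 were lower and 7 higher, with a median of -0.074. Cd36, a scavenger and thrombospondin receptor, fell from 146 ± 2.61 to 30.8 ± 2.77 CPM, and Plaur, the urokinase receptor, which associates with Mac-1, from 137 ± 3.26 to 67.0 ± 2.87 CPM (SD, n = 3 each). Siglec1, a macrophage sialic acid receptor, fell with a log2 fold change of -0.61 (standard error 0.097). The tetraspanin Tspan32 rose from 108 ± 0.485 to 143 ± 5.01 CPM (SD, n = 3 each). The tetraspanin Cd53 was the most abundant, at 573 ± 11.9 and 609.8 ± 4.56 CPM. With scaling to the T cell markers Tspan32 and Cd53 turned to -0.17 and -0.49 on the log2 scale, and no gene of the list was higher past the threshold.

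**Figure D5:**
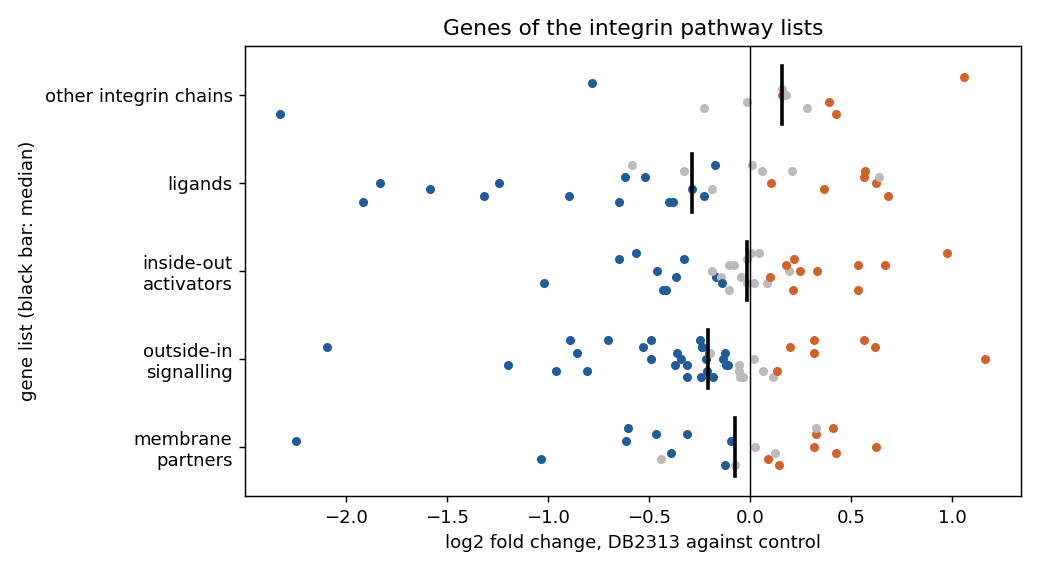
Log2 fold change, DB2313 against control with TMM scaling, of each tested gene in 5 lists of integrin adhesion genes. Points are genes, coloured where the adjusted p was below 0.05 and grey otherwise, and black bars are medians. Most coloured points of the outside-in list (27 of 34) lie below 0, while the inside-out list has 10 on each side. Scaling to the T cell markers shifts all points down, and 26 of the 33 genes that are higher here then lie below 0.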

How the data were processed

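RNA-seq of 3 control and 3 DB2313 libraries was analysed. The authors aligned the reads, counted them on genes and deposited raw counts without normalization. The submitters' processing notes list CASAVA 1.8, HISAT2 2.0.5 and featureCounts 1.5.0-p3, whereas the paper names LifeScope. The build, annotation and strand setting are not given in the sources used here. All 10 members, and 98.3% of the gene IDs shared with GENCODE M21, had the coordinates of GRCm38.

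Each gene was fitted over all 6 libraries by edgeR 4.0.16 in R 4.3.3 (filterByExpr, TMM, glmQLFit, glmQLFTest, Benjamini-Hochberg adjustment). The standard error is the fold change divided by the root of the F statistic. DESeq2 1.42.0, other scalings and filters, protein-coding genes only, a replicate block and leaving out each library were alternatives. The scripts were tested on simulated counts. Other gene lengths were added after seeing the data.

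The members, gene lists and alternatives were chosen with earlier results of these data known. Beside the members, the text names for each pathway list the most abundant gene and up to 3 rises and 3 falls past the threshold, if the group with more reached 10 CPM and the libraries did not overlap, and the 4 genes nearest in pattern to the members that changed most in each direction, and genes that overlap a member. Some genes that this rule names are not reported here. Lists of B cell, natural killer cell, mast cell and basophil, and stromal cell markers were also followed. Libraries of similar depth gave each member at least 285 counts. Precision from depth covers counting error alone and not the spread between cultures. The paper's methods name no molecular identifiers for the reads.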

Additional observations from a re-analysis of the deposited data

How the results depend on the processing

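Over the alternatives, 125 of 140 comparisons of single chains kept their direction and side of the threshold, 7 gained and 4 lost the call, and 4 reversed. Itgam, Itgax, Itgb2 and Itgb1 were lower with an adjusted p below 0.05 under each scaling, filter and tool, with the block and without each library. An absolute log2 fold change above 1 as well left 789 lower and 204 higher genes. With library size scaling 4931 genes were higher, and 4 chains were higher there and with upper quartile scaling. Scaling to the T cell markers gave 11484 lower and 178 higher genes, 10 lower and 0 higher chains, 110 lower and 4 higher pathway genes and 11 higher cell marker genes, and turned Itga4 (-0.52), Itgb7 (-0.57), Itgae (-0.51) and Itga6 (-0.20). This follows from that scaling, since the markers rose.

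Medians near 0 changed sign as well. With library size scaling those of inside-out activators (0.078), membrane partners (0.021) and mast cell and basophil markers (0.076) rose above 0, and with upper quartile scaling those of inside-out activators (0.048) and mast cell markers (0.045). With scaling to the T cell markers those of the other integrin chains (-0.42), B cell markers (-0.11) and stromal markers (-0.40) lay below 0. Without each library in turn that of the mast cell list ranged from -0.049 to 0.010, the latter without DB2313 replicate 3. With each library left out, 1 to 2 chains were higher and 5 to 6 lower, and the Itga4 to Itgb7 log2 ratio ranged from -0.016 (without DB2313 replicate 3) to 0.11. The cause was not tested.

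The replicate numbers are shared by the groups, but deviations of same-numbered libraries correlated at -0.0047, -0.019 and -0.105 over 9666 genes, so they were not taken as pairs. With a replicate block 3525 genes were lower and 2912 higher, with 6 and 1 of the chains, and no chain changed its call. For the ratio of Itgam to Itgb2 the block gave the same difference of -1.01, with an exact p of 0.25, the smallest that 3 pairs allow.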

Other observations

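Markers of further cell types were counted at low levels. Of 9 tested B cell markers, 6 were higher with DB2313 and none lower, and their summed share was 0.00508% to 0.00533% of the counts in the control libraries and 0.00789% to 0.00814% in the DB2313 libraries. Of 6 tested natural killer cell markers, 5 were higher, with a share of 0.00259% to 0.00294% and 0.00455% to 0.00522%. Of 6 tested stromal markers 2 were higher, with shares of at most 0.00216%. Mast cell and basophil markers were more abundant, at 0.116% to 0.117% and 0.0997% to 0.102%, and divided, with 3 of 9 tested higher and 4 lower. The following were chosen after their values were seen. Cpa3, a mast cell carboxypeptidase, fell from 460.05 to 186 CPM. Tpsb2, a mast cell tryptase, fell from 109 to 2.57 CPM and Cma1, a mast cell chymase, from 28.1 to 9.38 CPM, whereas Mcpt8, a basophil protease, rose from 199 to 286 CPM, a direction that turned with scaling to the T cell markers (-0.058 on the log2 scale). Of the other tested genes of the list, Prss34 rose from 236 to 310 CPM and Fcer1a from 24.7 to 34.8 CPM. Hdc fell from 45.4 to 40.0 CPM, and Gata2 and Ms4a2 did not pass. With scaling to the T cell markers no gene of this list was higher past the threshold. Under that scaling 1 B cell marker was higher and 1 lower, and 1 stromal marker was higher and 1 lower. The natural killer cell list then had 0 higher and 0 lower.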
